A study of Mus musculus with 4 samples.

Results

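Transglutaminases and peptidylarginine deiminases are the enzymes that modify the structural proteins of the upper epidermis, and their transcripts were examined here in newborn mouse skin with and without loricrin. A set of 7 genes was considered, Tgm1, Tgm2, Tgm3, Tgm5, Padi1, Padi2 and Padi4, and a probe set was taken where the platform annotation gave exactly one of these symbols. This found 7 probe sets for 6 of the 7 genes among 24833 probe sets in all, of which 21414 stand for 1 of 13674 named genes, 5 on the first of 2 array types and 2 on the second. Tgm3 was the 1 gene with a probe set on both types. No probe set is listed for Tgm1, the membrane-bound transglutaminase of keratinocytes, so it was not analysed here.

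The samples were whole skin of FVB/N mice taken at birth (postnatal day 0), from loricrin knockouts and from wildtype animals. Each genotype had 2 arrays, 1 of each type, so every probe set was read once per genotype and its ratio has no replicate error. The labels give no allele, no breeding scheme and no number of animals per array. The second array of a genotype is labelled a replicate, but whether it held RNA of another animal is not stated. In such bulk tissue, fewer cells of one kind and less RNA per cell cannot be told apart.

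As background, transglutaminases join glutamine to lysine side chains in a calcium-dependent reaction and so weld precursor proteins into the insoluble cornified envelope, of which loricrin is the main component. Tgm1, Tgm3 and Tgm5 act in differentiating keratinocytes, while Tgm2 is found in many cell types, among them endothelium. Peptidylarginine deiminases turn arginine into citrulline, also with calcium, and in epidermis and hair they act on filaggrin, keratins and trichohyalin. The comparison asks whether the transcripts of these enzymes differ when their chief substrate is missing.

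The enzyme genes lie in families of neighbours. In the RefSeq gene table of the mouse assembly GRCm38.p6, the protein-coding genes Padi6, Padi4, Padi3, Padi1 and Padi2 follow one another on chromosome 4, and Tgm5 lies on chromosome 2 between Epb42 and Tgm7. Tgm2 and Tgm3 lie on chromosome 2 too, and Tgm1 lies on chromosome 14. The protein-coding genes directly beside Tgm2 are Rprd1b and D630003M21Rik, and those directly beside Tgm3 are Stk35 and AU015228. Genes further away were not looked at.

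The promoters of Tgm3 and Tgm5 are shown because these were the genes with signals above the measuring floor on every array that carried them. Each stretch holds 300 bases from RefSeq, build GRCm38.p6, of which 250 precede the annotated start site. It is chr2:130012090-130012389 on the plus strand for Tgm3 and chr2:121085792-121086091 on the minus strand for Tgm5, both printed 5′ to 3′ along the gene. Capitals mark matches, on either strand, to the TATA box (TATAAA), the CCAAT box (CCAAT) or a grainyhead element (AACCNGTT). The AP-1 element (TGANTCA) and the GC box (GGGCGG) were searched as well.
Tgm3: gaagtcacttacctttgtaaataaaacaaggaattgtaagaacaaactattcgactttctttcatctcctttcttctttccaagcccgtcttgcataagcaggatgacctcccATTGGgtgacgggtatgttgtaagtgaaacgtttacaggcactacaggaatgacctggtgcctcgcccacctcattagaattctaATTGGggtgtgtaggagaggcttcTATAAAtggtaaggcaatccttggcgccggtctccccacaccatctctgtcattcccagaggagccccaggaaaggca
Tgm5: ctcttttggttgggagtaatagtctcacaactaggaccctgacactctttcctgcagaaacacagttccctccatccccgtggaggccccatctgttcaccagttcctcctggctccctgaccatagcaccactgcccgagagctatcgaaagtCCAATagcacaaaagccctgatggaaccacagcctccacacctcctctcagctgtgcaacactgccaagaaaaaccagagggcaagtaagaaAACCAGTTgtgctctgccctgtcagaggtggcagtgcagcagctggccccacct
Tgm3 had a TATA box whose first base lies at -28 from the start site, and 2 CCAAT boxes on the reverse strand, at -137 and -52. Tgm5 had a CCAAT box at -96 and a grainyhead match at -4. No printed match overlapped another. Over 32851 promoters of this length, 13.6% held a TATA box, 37.4% a CCAAT box, 2.09% a grainyhead match, 7.81% an AP-1 element and 35.7% a GC box. These are matches of letters only, and no data here bear on binding.

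No measured ratio or bound of the 7 probe sets reached 2-fold between knockout and wildtype skin. This leaves a larger difference possible for Padi1 and Padi4, known only as bounds, and says nothing of Tgm2 and Padi2. Of all first-type probe sets, 0.869% were higher in knockout by 2-fold or more and 1.22% were lower, and of the second-type ones 1.48% and 1.84%, so a count of 0 among 7 is near that background. To keep low signals from giving large ratios, readings below a floor (77.6 for first-type and 133 for second-type arrays) were set to the floor. Of the 7 probe sets 3 had both readings above it, 2 had 1 reading above it, for which the ratio is a bound, and 2 had none.

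**Figure D1:**
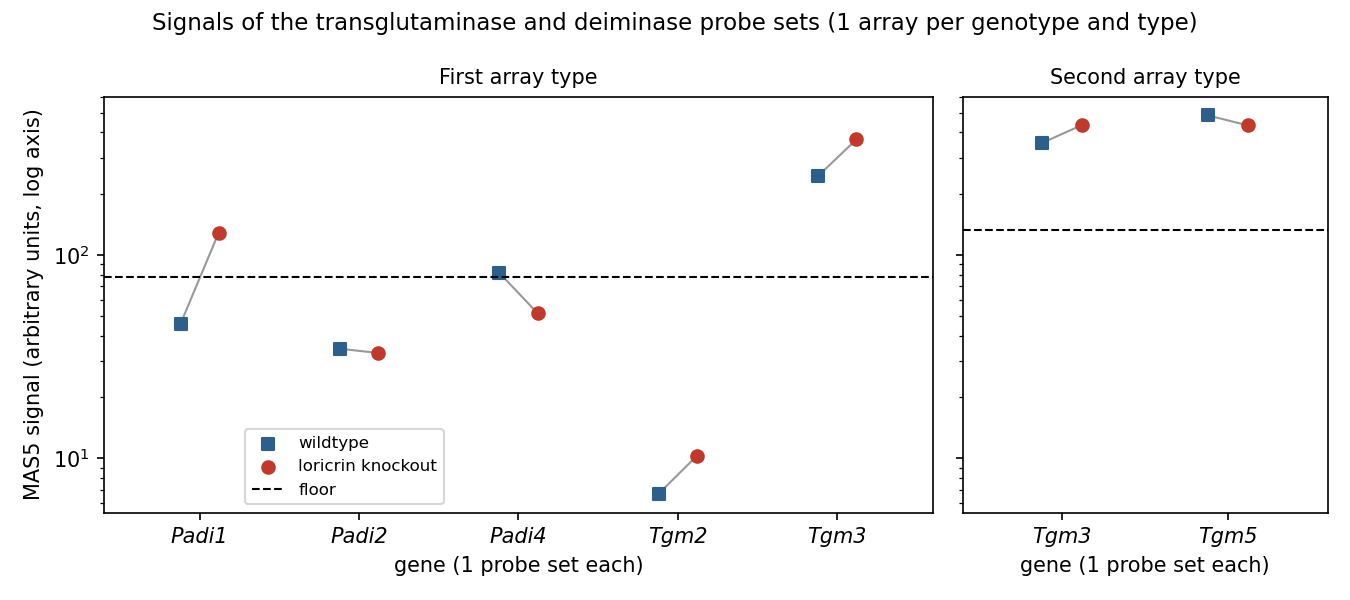
MAS5 signal (log axis, arbitrary units) of each transglutaminase and deiminase probe set on the wildtype array (squares) and the knockout array (circles), with the floor dashed; heights of different probe sets are not comparable. Tgm3 and Tgm5 lie above the floor throughout, Padi1 and Padi4 cross it, and Padi2 and Tgm2 lie below it in both genotypes.

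Tgm3, an epidermal and hair follicle transglutaminase made as an inactive precursor, was higher in knockout on both array types, by less than 2-fold. On the first type its signal was 370 for knockout against 245 for wildtype, a log2 ratio of 0.60 or 1.51-fold. Through another probe set on the second type it read 435 and 356, a log2 ratio of 0.29 or 1.22-fold. The knockout array was thus the higher of each pair, and the first-type ratio was the larger.

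Because Tgm3 was on both types, it could be tested. Over both types its mean log2 ratio was 0.44 (SE 0.24, 95% interval -0.071 to 0.96), higher in knockout on 2 of 2 types, with a limma adjusted p = 0.533 and an unadjusted p of 0.0858. It did not pass the threshold of 0.05. The fit covered 1081 genes measured on both types, of which 1 or 0.0925% passed, Sox11, named after its value was seen. At an unadjusted p under 0.05 there were 110 genes. Across the 1081 genes, which are not independent replicates, the difference between the 2 types' log2 ratios had an SD of 0.56, and 610 genes had the same sign on both. The Tgm3 ratios differed from each other by less than that SD, and the first-type ratio itself was about as large.

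The mean of Tgm3 lay between 0.35 and 0.46 under 9 of 10 alternative settings, with limma adjusted p-values from 0.411 to 1. Under scaling on the bacterial spike-in controls it was 1.11 with a limma adjusted p of 0.0252, but there 591 of 1075 genes, 55.0%, passed too. The first-type ratio was then 1.28, past 2-fold, and the second-type ratio 0.94. That scaling raised the median log2 ratio over all probe sets to 0.65 and 0.64, so the position of Tgm3 above the typical probe set changed little.

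Tgm5, a keratinocyte transglutaminase that also cross-links envelope precursors, had a signal of 433 for knockout against 485 for wildtype on the second type. The log2 ratio was -0.16, or 1.12-fold in favour of wildtype, and turned to 0.49 under spike-in scaling. The quartiles of the log2 ratio over the 6763 probe sets of that type with both readings above the floor were -0.27 and 0.26. Tgm5 lay between them, while the 0.29 of Tgm3 lay just above it.

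Tgm2, the widely expressed tissue transglutaminase, had first-type signals of 10.3 (knockout) and 6.71 (wildtype). Both readings lay far below the floor, also with the floor at the 20th percentile of signal, and no ratio could be given. A reading this low does not show that the transcript was missing. Krt5 and Krt14, keratins that basal keratinocytes make abundantly, also read below the floor in both arrays, Krt14 at 32.0 and 8.83.

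**Figure D2:**
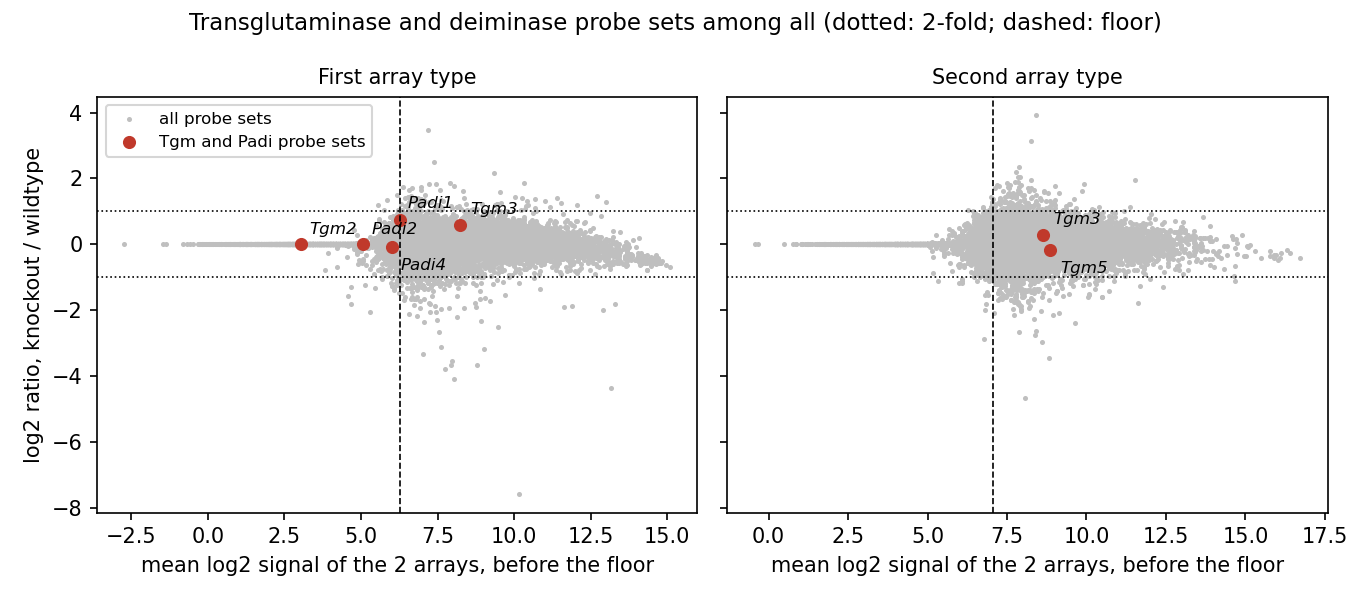
Log2 ratio of knockout over wildtype (vertical) against the mean log2 signal of the 2 arrays before the floor (horizontal) for every probe set, with the transglutaminase and deiminase probe sets in red, 2-fold dotted and the floor dashed. All 7 red points lie between the dotted lines, and Tgm2 and Padi2 sit at 0 because both of their readings were raised to the floor.

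Of the 3 deiminases in the set, Padi1 alone had a knockout reading above the floor. Padi1, which is expressed in differentiating keratinocytes, had first-type signals of 129 (knockout) and 45.8 (wildtype), so it was at least 1.66-fold higher (log2 ratio 0.73 or more). The readings themselves differed 2.81-fold. A floor at the 20th percentile put Padi1 past 2-fold, at a log2 ratio of 1.49. A floor at the 60th percentile lay above both readings, and no difference could then be given. With a floor of 20.1 in place of 77.6, however, 434 probe sets of that type were higher by this much and 700 lower.

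With a rule of 1.5-fold instead of 2-fold, 2 of the 7 probe sets passed, Padi1 and the first-type probe set of Tgm3, both higher in knockout. The same rule took as higher 4.11% of all first-type probe sets and 6.08% of all second-type ones. Among first-type probe sets with both readings above the floor, as for Tgm3, the share was 5.80%.

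Padi4, the deiminase with a nuclear localisation signal that citrullinates histones in granulocytes, read 51.7 in knockout and 81.6 in wildtype. The wildtype reading lay just above the floor, which bounds the difference at 1.05-fold or more lower in knockout. The readings themselves differed 1.58-fold, and the bound was -0.072 on the log2 scale. It shrank to -0.0075 under loess, and under spike-in scaling both readings fell below the floor. Granulocyte markers were mostly as low. Of 10 listed genes 9 were on the first type. There 1 was at least 2-fold lower and none higher, beside 1.22% and 0.869% of all probe sets. The summed signal of the 9 was 799 in knockout and 864 in wildtype. That sum rested on Csf3r, a cytokine receptor gene (492 against 317), and without it the other 8 summed to 307 against 546. The granule genes Camp (34.0 against 169) and Elane (103 against 192) were lower in knockout, Camp by at least 2.17-fold, and the defining enzyme Mpo was below the floor at 30.0 and 55.6. Of the others below the floor, Ctsg, Prtn3 and Cxcr2 read lower in knockout, and Ltf (70.6 against 14.8) and Ngp (17.1 against 14.3) read higher. The part of these cells in the Padi4 reading was not tested.

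Padi2, a deiminase of muscle, brain and many other tissues, read 33.0 in knockout and 34.6 in wildtype. Both readings lay below the floor and differed 1.05-fold.

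**Figure D3:**
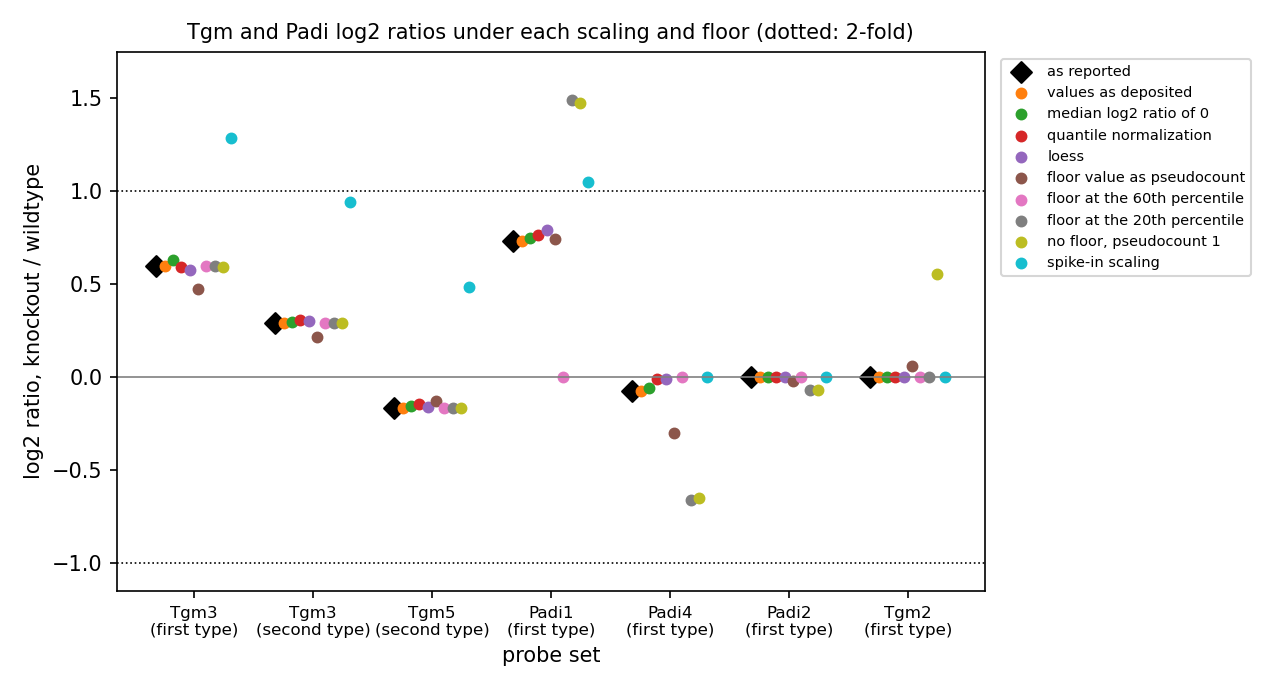
Log2 ratio of knockout over wildtype for each transglutaminase and deiminase probe set under the reported setting (black diamonds) and each alternative scaling or floor (coloured points), with 2-fold dotted. Points past 2-fold belong to the first-type probe set of Tgm3 under spike-in scaling and to Padi1 under spike-in scaling, the floor at the 20th percentile and no floor.

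Relatives of these enzymes outside the set were measured by few probe sets. Of 7 listed relatives 2 were on each type, and none passed 2-fold. F13a1, the transglutaminase subunit of coagulation factor XIII, had second-type signals of 282 (knockout) and 311 (wildtype), a log2 ratio of -0.14. Padi6, the deiminase of oocytes and early embryos, read 163 and 18.5 there, which with a floor of 133 gives a bound of at least 1.22-fold higher. Padi3, the deiminase of the hair follicle and upper epidermis, read 18.1 and 59.2, both below the floor of the first type. Epb42, an erythrocyte protein of the transglutaminase fold without the enzyme activity, read 12.9 and 24.1, also below it.

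The substrates of the enzymes were compared next, loricrin first because it checks the genotype label. Loricrin (Lor) gave 2013 on the knockout array against 41225 on the wildtype array, both of the first type, which is 20.5-fold less (log2 ratio -4.36), and a further probe set read 12.4 and 27.3, below the floor. Where its probes lie relative to the deletion is not given in the sources used here, and no loricrin probe set is listed on the second type. The list of envelope substrates held 42 symbols, with loricrin under both Lor and Loricrin. Of these 22 were on the first type. There 3 were at least 2-fold higher and 1, loricrin, lower, beside 0.869% and 1.22% of all probe sets. The higher ones were the small proline-rich proteins Sprr2i (4384 against 1641, 2.67-fold), Sprr2h (4598 against 1930, 2.38-fold) and Sprr2e (6432 against 2844, 2.26-fold). Of the 7 Sprr2 genes read there, 5 have probe sets marked for sequence shared within a family.

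The median log2 ratio of the 21 substrates whose mean signal lay above the floor was -0.16, beside 0.014 over all such probe sets of that type. The 21 include loricrin itself (-4.36), and a median without it was not taken. On the second type 9 substrates were present, none passed 2-fold and the median of the 8 above the floor was -0.30, beside 0.0038 over all. Both medians turned with the processing: under quantile normalization they were 0.05 and 0.072, and under spike-in scaling 0.52 and 0.35. With probe sets of no suffix alone, the second-type median was 0.29. That value is the log2 ratio of Evpl, and the setting leaves out the suffixed probe sets that gave the late cornified envelope genes above the floor. The brightest on the second type, the late cornified envelope genes Lce1f and Lce1h, read 78409 against 95194 and 64704 against 77970. Both have probe sets marked for sequence shared within a family, so these readings may include other family members. S100a10, a calcium-binding envelope substrate named after its values were seen, had opposite ratios on the types, -0.60 and 0.88.

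Deiminase substrates did not pass 2-fold either. Of 9 listed, 7 were on the first type, with log2 ratios from -0.58 to 0.01 and a median of -0.47. The suprabasal keratins Krt1 and Krt10 read 18713 against 26637 and 18479 against 25557. Filaggrin (Flg), the best known deiminase substrate of the epidermis and named after its value was seen, read 17219 against 22621, a log2 ratio of -0.39. The median depended on the scaling, at 0.0012 under quantile normalization, -0.14 under loess and 0.22 under spike-in scaling. Krt1 and Krt10 count among the envelope substrates as well.

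**Figure D4:**
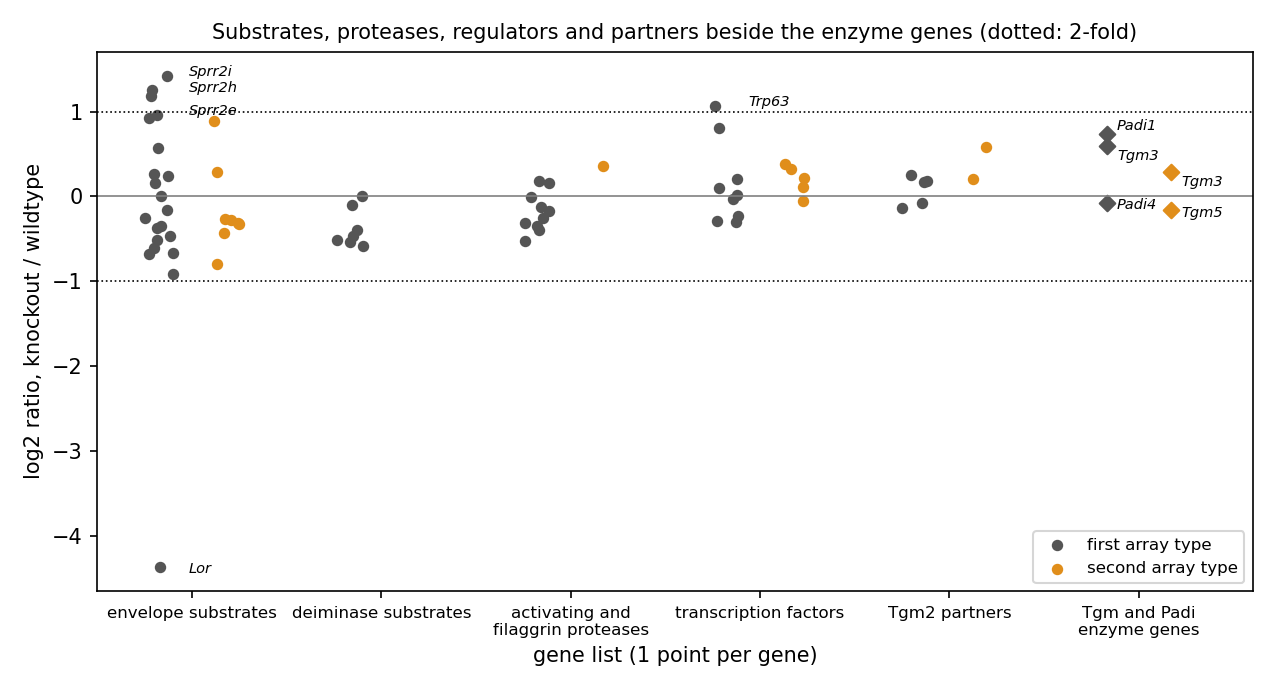
Log2 ratio of knockout over wildtype for each gene with at least 1 reading above the floor in the lists of substrates, proteases, transcription factors and Tgm2 partners, beside the transglutaminase and deiminase genes (diamonds), on the first (grey) and second (orange) array type. Loricrin at -4.36, 3 Sprr2 genes and Trp63 are the points past 2-fold (dotted), and the points of Padi1, Padi4, the deiminase substrate Vim and second-type Ltbp1 are bounds.

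Proteases that cut transglutaminase precursors or break down citrullinated filaggrin were close between the genotypes. Of 11 listed, 10 were on the first type, none passed 2-fold, and the log2 ratios ran from -0.52 to 0.18 with a median of -0.21, or 0.47 under spike-in scaling. Bleomycin hydrolase (Blmh) and caspase 14 (Casp14), which degrade filaggrin to free amino acids, read 12827 against 16289 and 10939 against 10975. On the second type matriptase (St14) read 4467 against 3471, a log2 ratio of 0.36, while Capns1, the small calpain subunit, was below the floor.

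Of 13 listed transcription factors with a role in transglutaminase expression or epidermal differentiation, 10 were on the first type. There 1 was at least 2-fold higher and none lower, beside 0.869% and 1.22% of all probe sets. The higher gene was Trp63, the p63 gene of basal keratinocytes, which read 1906 against 913, 2.09-fold higher. The median log2 ratio of the 9 above the floor was 0.02. On the second type none of 5 passed, and the brightest, Sp1 and Ovol1, read 9572 against 8244 and 8825 against 8140. None of 10 extracellular partners of Tgm2 passed on the first type, where 5 had a mean signal above the floor and a median log2 ratio of 0.18. Spike-in scaling took this median to 0.86 and a 20th percentile floor turned it to -0.08. The integrin chain Itgb1 read 3311 against 2933 and the proteoglycan Sdc4 1137 against 1248. None of the 3 on the second type passed.

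Markers of cell types and of sex were read from the same arrays, and some differed between knockout and wildtype. These values stand beside the ratios above. The part of genotype in the cell type marker differences was not tested. Markers of differentiated keratinocytes were bright, as the tissue label requires, with a summed first-type signal of 110798 for knockout against 201805 for wildtype. Of 9 measured there 1, loricrin, was at least 2-fold lower, and the median log2 ratio was -0.58. Without loricrin the other 8 summed to 108784 against 160581. In the same pair of arrays 4 of 8 basal keratinocyte markers were at least 2-fold higher in knockout (summed signal 5754 against 2719, Trp63 among the 4) and 7 of 12 dermal fibroblast markers at least 2-fold lower (5087 against 9716). Of all first-type probe sets 0.869% were higher and 1.22% lower by that much. Of the other basal markers Itgb4 read 536 against 521, and Krt5, Krt14 and Krt15 lay below the floor. Of the other fibroblast markers Col5a1 was 1.77-fold lower and Pdgfrb lay below the floor. Thy1 read 191 against 169, Dcn 2462 against 2556 and Col1a2 1082 against 1076. None of 9 endothelial markers passed 2-fold (693 against 1242), though Eng (381 against 721) and Pecam1 (115 against 192), the 2 whose mean lay above the floor, were both lower in knockout. Of 10 hair follicle markers 1 was higher and 1 lower (1866 against 1834), and on the second type Krt73 read 1766 against 996 and Foxn1 885 against 830. Of 5 erythroid markers 3 were at least 2-fold lower in knockout (summed signal 5533 against 21770), the haemoglobin genes Hba-a1 by 4.01-fold and Hbb-b2 by 3.78-fold, and the haem synthesis gene Alas2 by at least 3.23-fold. On the second type 3 differentiated markers had a median log2 ratio of -0.41. The only basal marker there, Krt15, had a log2 ratio of 0.25, between the quartiles of that type (-0.27 and 0.26). It was read through a probe set marked for sequence shared within a family. On the first type Tgm3 and Padi1 were thus higher in the array in which 4 basal markers were higher and most differentiated markers lower. The marker lists were read under the reported scaling alone. Krt1, Krt10 and Flg are both differentiated markers and deiminase substrates. The first-type median of those substrates was -0.47 as reported, 0.0012 under quantile normalization, -0.14 under loess and 0.22 under spike-in scaling. The part of cell composition in the Tgm3 and Padi1 ratios was not tested. Xist, transcribed from the inactive X chromosome of females, had first-type signals of 857 (knockout) and 24.7 (wildtype), and the Y-linked Kdm5d 12.2 and 976 on the second. Sex and genotype therefore cannot be told apart in these ratios.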

How the data were processed

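Total RNA of whole skin was labelled with biotin and hybridised to arrays, per the labels' protocols. The authors deposited 1 linear array intensity per probe set and array, and the submitters' processing notes name MAS5 as the tool. Its version and scaling target are not stated there. The deposited intensity columns had 2% trimmed means from 500.2 to 500.4.

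The pair of arrays of a type was set to an equal 2% trimmed mean, readings were raised to the mean of their 40th percentiles, and log2 ratios (knockout over wildtype) were taken. Control probe sets, 66 per type, were then left out, leaving 12422 and 12411. Genes were named from probe sets with 1 gene (10833 and 10581), with symbols updated through a RefSeq gene table, and the probe set of highest mean signal stood for a gene. Array number limits the precision: 1 array per genotype and type allows no test within a type. Genes on both types were fitted if their mean log2 signal lay above the floor on each. For these, limma 3.58.1 (lmFit and eBayes, Benjamini-Hochberg, array type as a block, R 4.3.3) compared the genotypes. The fit had 1 residual and 13.9 prior degrees of freedom. Its p-values do not measure spread between animals.

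Named are every probe set of the 7 genes, loricrin, and of each list other than the marker lists up to 4 genes past 2-fold or its 2 brightest. The marker lists did not follow this rule, and not all of their genes past 2-fold are named above. Left out were Col3a1 (at least 12.6-fold lower in knockout) of the fibroblast list and Itga6 (3.1-fold higher) of the basal list, among others. Krt5, Krt14, Mpo, Csf3r, Elane, Evpl, Vim, Xist, Kdm5d and the genes so marked in the text were picked with their values in view. So were the first-type basal, fibroblast and granulocyte markers named without passing 2-fold. Alternatives were other scalings, floors, the rule of size, probe set choice and the block. The steps were tested on simulated data with planted 4-fold changes, which does not bear on finding changes as small as those of the enzyme genes. The genes and lists were chosen with earlier results of these data known.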

Additional observations from a re-analysis of the deposited data

How the results depend on the processing

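Over the 9 scaling and floor alternatives, 59 of 63 ratios of the transglutaminase and deiminase probe sets stayed on their side of 2-fold, but 16 of the 63 had both readings below the floor and were 0 by construction. As reported no ratio was past 2-fold, so none could lose that. Tgm5 went from -0.16 to 0.49 under spike-in scaling. The exceptions were the first-type probe set of Tgm3 under spike-in scaling (1.28) and Padi1 under spike-in scaling (1.05), a 20th percentile floor (1.49) and a pseudocount of 1 without a floor (1.47). For Padi1 the cause in the last pair is that the wildtype reading was no longer raised. A rule of 1.5-fold took 2 probe sets where 2-fold took 0. The limma mean of Tgm3 passed under spike-in scaling (1.11) and was 0.29 or 0.60 when either array type was left out, with no test. Leaving out an array within a type gives no ratio.

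Probe sets past 2-fold numbered 259 and 412 on the 2 types as reported. They were 1483 and 1475 under spike-in scaling (96.6% and 95.9% higher, against 41.7% and 44.7%), 1134 and 1551 with a 20th percentile floor, 80 and 96 with a 60th percentile floor, 2096 and 2607 with a pseudocount of 1, and 170 and 274 with the floor added as a pseudocount. Genes past the limma threshold went from 1 to 591 under spike-in scaling, 10 under loess, 6 with a 60th percentile floor, and 0 under a median ratio of 0, quantile normalization, a 20th percentile floor, either pseudocount and no array type block. The cause of these changes was not tested.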
